A study of Mus musculus with 25 samples.

Results

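Liver fibrosis was followed through 38 genes that hepatic stellate cells, myofibroblasts and other matrix-producing cells use to build, cross-link and remodel scar tissue, out of 17016 gene symbols on the array. The genes form a list named by function, chosen with earlier results of these data known, and each was read from its probe of highest mean signal over the 25 arrays. All 38 had a probe named by accession and all were tested. In 33 of them the scanner software called the spot well above background on all 25 arrays. The exceptions were Tgfb2 and Loxl3 on 23 arrays, Thbs1 on 21, Mmp12 on 16 and Lox on 13. Des, Lrat, Cygb, Reln and Pdgfrb, which mark stellate cells in healthy liver, were well above background in every library.

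The study profiled whole-liver RNA from untreated mice in which hepatocytes had lost Mcl-1, an anti-apoptotic member of the BCL-2 family, on 1-colour oligonucleotide arrays labelled with Cy3. At 2 months there were 2 wild-type, 3 Mcl-1 hemizygous and 3 Mcl-1 knockout (ko) livers, and at 12 months 3 wild-type livers. Knockout mice of 8 months (3 animals) and 12 months (4 animals) each gave a tumor, labelled hepatocellular carcinoma (HCC), and the corresponding non-tumor tissue. The groups were littermates, and no agent was given to any group. The sources used here name no promoter for the deletion, no sex and no strain. Mcl1 itself read between 3.82 and 4.45 in the 5 wild-type livers, between 3.15 and 3.53 in the hemizygous livers and between 1.38 and 2.97 in the 17 knockout samples, so the 3 genotypes did not overlap. Homogenised liver holds every cell type, so fewer cells of a type and less RNA per cell cannot be told apart in any result given here.

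Hepatic stellate cells lie between hepatocytes and sinusoidal endothelium, where they store vitamin A. After injury they respond to platelet-derived growth factor, which drives their division, and to transforming growth factor beta, which drives matrix synthesis, and they turn into contractile myofibroblasts that express smooth muscle actin. Those cells secrete fibrillar collagens, lysyl oxidases cross-link the fibres, and matrix metalloproteinases and their tissue inhibitors set how much of the matrix is kept.

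Values are given as levels, the log2 of the processed signal minus the 75th percentile of the same array, so that 0 is the signal at that percentile and a difference of 1 is a 2-fold change. A level was compared between samples for a given probe and never between probes. Values are listed in a fixed order of animals. At 2 months the order is wild type 31 and 34, hemizygous 27, 28 and 30, and knockout 137, 64 and 69. For the older mice it is wild type 552, 641 and 1110, knockout 1347, 1287 and 934 at 8 months, and knockout 1109, 638, 702 and 793 at 12 months. The share of probes well above background ran from 60.3% to 84.9% of each array, highest in wild type 641. Libraries 638 and 641 weighed on the counts over all genes. Without knockout non-tumor 638, the number of genes past the threshold between knockout and wild type at 12 months went from 5 to 2863. Without wild type 641 the number between 12- and 2-month wild type went from 11 to 1672. The 12-month wild-type livers left in that second fit were scanned on another day than the 2-month ones, so age and scan day cannot be told apart in it. The arrays came from 8 slides, and no slide held wild-type and knockout livers of the same age.

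Promoter sequence is shown for 3 of the genes, because the myofibroblast gene Acta2 and the collagen gene Col1a2 are textbook targets of serum response factor and of matrix-inducing signals, and because Mmp12 was not well above background in any 2-month wild-type or hemizygous liver and was so in the knockout. Each run is the 250 bases before the RefSeq transcript start, 5′ to 3′ on the gene's strand, with capitals marking the match named after it. RefSeq promoter windows of build GRCm38.p6 were found for 23 of the 38 genes, in 25 windows, out of 32851 windows in the table.
Acta2, chr19:34255374-34255623, minus strand: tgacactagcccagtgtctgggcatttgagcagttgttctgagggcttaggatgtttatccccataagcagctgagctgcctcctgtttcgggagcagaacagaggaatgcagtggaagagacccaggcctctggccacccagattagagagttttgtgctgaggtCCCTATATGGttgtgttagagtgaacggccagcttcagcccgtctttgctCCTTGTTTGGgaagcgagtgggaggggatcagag
Col1a2, chr6:4505368-4505617, plus strand: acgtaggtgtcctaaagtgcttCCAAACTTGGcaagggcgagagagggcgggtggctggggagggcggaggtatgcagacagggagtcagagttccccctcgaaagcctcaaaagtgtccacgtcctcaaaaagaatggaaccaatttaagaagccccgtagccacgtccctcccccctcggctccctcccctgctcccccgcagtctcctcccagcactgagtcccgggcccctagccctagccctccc
Mmp12, chr9:7347124-7347373, plus strand: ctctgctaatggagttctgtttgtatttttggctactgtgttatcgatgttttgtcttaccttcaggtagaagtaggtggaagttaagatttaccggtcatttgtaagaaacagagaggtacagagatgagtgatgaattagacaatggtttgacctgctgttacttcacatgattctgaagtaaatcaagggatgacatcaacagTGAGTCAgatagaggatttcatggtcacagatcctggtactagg
The capitals in the first pair of sequences are CArG-like boxes, defined as CC, 6 letters of which at most 1 is C or G, and GG. Acta2 had 2 of them, 84 to 75 and 34 to 25 bases before the start, and Col1a2 had 1, 228 to 219 bases before it. The capitals of Mmp12 are a match to TGANTCA, the letters of an AP-1 site, 44 to 38 bases before the start. On either strand, a CArG-like box stood in 8.59% of all windows and in those of 4 of the genes (Acta2, Col1a2, Lrat and Mmp14), and TGANTCA stood in 6.75% of all windows and in those of 2 genes (Col6a1 and Mmp12). The other strings were also searched on both strands, and matches could overlap those of another motif. The SMAD letters CAGAC stood in 10 of the 25 windows beside 42.2% of all windows, the GC box GGGCGG in 14 of 25 beside 32.7%, and TATAAA in 4 of 25 beside 12.4%. These are letter matches in a fixed window and say nothing of binding.

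The first comparison asked how young knockout liver differed from wild type, before the ages at which tumors were sampled. At 2 months, 36 of the 38 genes had a higher mean in knockout liver, and the median change over the 38 was 1.25 log2 units beside -0.04 over all 27009 genes tested. With the 5 genes that were not well above background in wild type set at the bounds given with each gene, the median was 1.22. None of the 38 passed limma's test after Benjamini-Hochberg adjustment, which 0.0222% of all genes passed. The lowest adjusted p among the 38 was 0.214, for Loxl2. At an unadjusted p under 0.05, 25 of the 38 were higher in the knockout and 0 were lower, beside 4.3% and 4.61% of all genes. In 33 of the 38 all 3 knockout livers lay above both wild-type livers, a pattern seen in 16.8% of all genes. Fn1 and Timp1 had a lower mean in the knockout, and the ranges of Col6a2, Lox, Timp1, Fn1 and Lrat overlapped between the genotypes.

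The fibrillar collagens, which form the cable-like fibres of scar, all had higher means, with a median of 1.55 over 5 genes. Col1a1, the α1 chain of type I collagen, read 1.06 and 1.14 in wild type, 1.98, 1.46 and 1.42 in hemizygous and 2.78, 3.70 and 2.93 in knockout livers. The knockout mean was higher by 2.04 (SE 0.94), or 4.11-fold (n = 3 and 2, limma adjusted p = 0.549). On this brightest Col1a1 probe the 3 genotypes formed separate ranges in the order of Mcl-1 loss. Col1a2, which encodes the partner chain of the same fibre, read 1.97 and 2.38, then 3.05, 2.82 and 2.51, then 3.80, 4.37 and 4.0. Col3a1, the type III collagen that is laid down early in scars, read 2.20 and 2.29, then 2.99, 2.90 and 2.62, then 3.65, 4.22 and 3.50, a knockout difference of 1.55 (SE 0.79). Both genes kept the 3 genotypes in separate ranges. Col5a2, a minor chain that limits fibre width, read -2.0 and -3.19, then -1.77, -1.86 and -2.44, then -1.69, -1.22 and -0.57. Its wild-type animals lay far apart and its hemizygous livers overlapped with them. Col5a1, its partner, differed by 1.22 (SE 0.46).

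Basement membrane and microfibril collagens had smaller differences, with a median of 1.0 over 4 genes. Col4a1, a chain of the sheet-forming type IV collagen beneath endothelium and bile ducts, read 0.18 and -0.31 in wild type, 0.51, 0.66 and -0.36 in hemizygous and 0.61, 1.03 and 0.92 in knockout livers. Its partner Col4a2 read 0.18 and 0.13, then 1.04, 0.84 and 0.12, then 0.90, 1.12 and 0.92. The hemizygous livers of both genes spread from the wild-type to the knockout range. Col6a1, a chain of the beaded filaments of type VI collagen, read -1.30 and -1.95, then -0.21, 0.035 and -1.59, then -0.17, 0.63 and 0.51, with a knockout difference of 1.95 (SE 0.67).

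**Figure D1:**
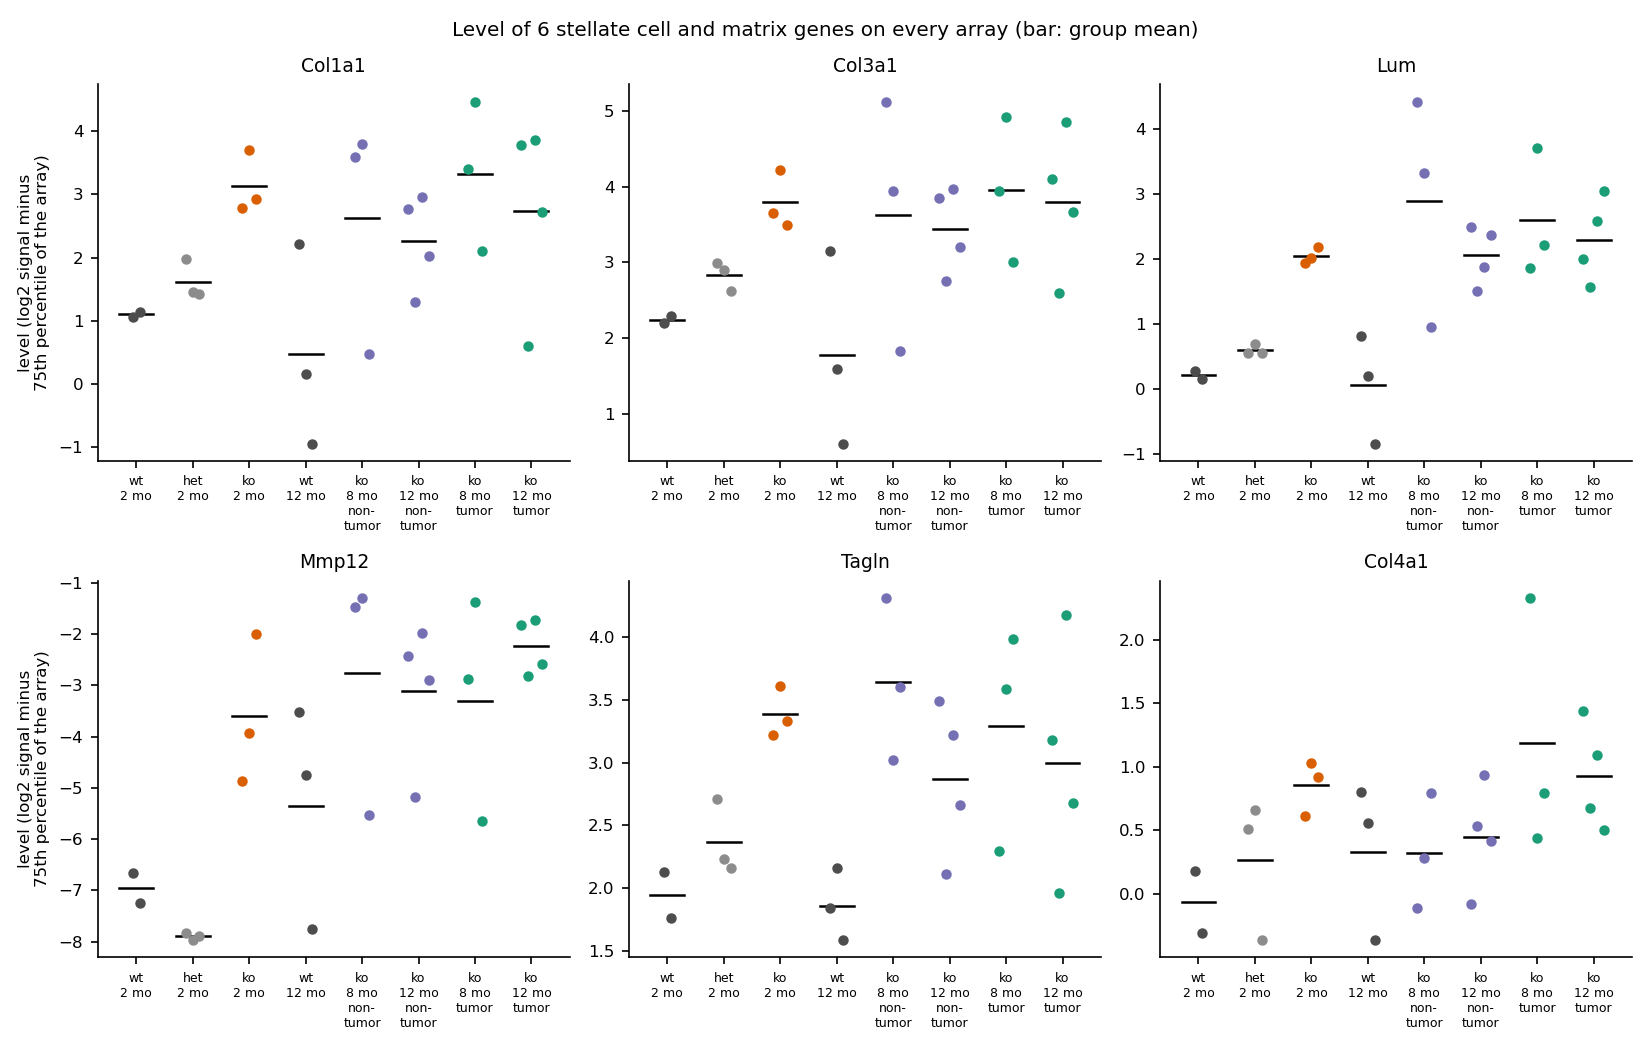
Levels of Col1a1, Col3a1, Lum, Mmp12, Tagln and Col4a1 on each of the 25 arrays, by genotype, age and tissue (x axis), as log2 signal minus the 75th percentile of the array (y axis, a separate range in each panel). Points are single arrays and bars are group means. At 2 months the 3 knockout points lie above both wild-type points in all 6 panels, and at 12 months the wild-type points of Col1a1 spread from -0.95 to 2.21.

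Among the enzymes that cross-link collagen and elastin, Loxl1 and Loxl2 had the smallest p-values of all 38 genes. Loxl1, which acts mainly on elastic fibres, read -2.33 and -2.46 in wild type, -1.31, -1.16 and -2.43 in hemizygous and -0.31, 0.30 and 0.088 in knockout livers, a difference of 2.42 (SE 0.59) or 5.37-fold (n = 3 and 2, limma adjusted p = 0.246). Loxl2, a cross-linker of fibrotic matrix, read -4.47 and -4.62, then -3.66, -3.95 and -4.04, then -3.08, -2.58 and -2.80, a difference of 1.73 (SE 0.40) or 3.31-fold. For Loxl2 the 3 genotypes formed separate ranges, while hemizygous animal 30 had Loxl1 at the wild-type level. Loxl3 and Lox were not well above background in either 2-month wild-type liver, so their changes are bounds, taken against the lowest signal called well above background on the same arrays or the probe's own value where that was higher. Loxl3 was at least 1.36-fold higher in the knockout (adjusted p = 0.360), from levels of -5.48 and -6.97 in wild type and -4.88, -4.12 and -4.66 in knockout. Lox, the founding member of the family, was at least 1.32-fold higher, from -4.59 and -7.39 to -4.65, -4.76 and -4.13, and its ranges overlapped.

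Proteases and their inhibitors did not move as a block. Mmp12, the elastase of macrophages, was not well above background in any wild-type or hemizygous liver of 2 months and read -4.86, -3.93 and -1.99 in the knockout livers. It was thus at least 2.64-fold higher than in wild type (adjusted p = 0.501) and at least 4.92-fold higher than in hemizygous liver (adjusted p = 0.310). Mmp2, a gelatinase secreted by stellate cells, read -3.14 and -3.04 in wild type, -2.32, -1.70 and -2.90 in hemizygous and -1.47, -0.81 and -0.74 in knockout livers, a difference of 2.08 (SE 0.75) with no overlap of knockout and wild type. Mmp14, the membrane protease that activates it, read 2.15 and 1.76, then 2.30, 1.90 and 2.28, then 2.60, 2.15 and 3.11, where the lowest knockout and the highest wild-type level were the same to the second decimal. Timp1, an inhibitor that stellate cells release after injury, read 0.54 and 1.28, then -0.33, 0.63 and 0.39, then 0.92, 0.046 and 0.91, with the groups intermixed and a difference of -0.28 (SE 0.46). Timp2 differed by 1.22 (SE 0.51).

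All 4 growth factor and receptor genes had a higher mean, with a median of 1.37, or 1.36 with Tgfb2 at its bound. Tgfb1, the main fibrogenic cytokine, read -2.03 and -2.38 in wild type, -1.36, -1.01 and -2.21 in hemizygous and -1.40, -0.69 and -0.87 in knockout livers, a difference of 1.21 (SE 0.48). Its hemizygous livers covered both neighbouring ranges. Tgfb2, a second isoform, was not well above background in wild type and was at least 2.75-fold higher in the knockout, from -5.73 and -5.56 to -3.87, -3.89 and -2.87, with hemizygous livers at -4.20, -4.91 and -4.85. Pdgfrb, the receptor through which stellate cells receive the platelet-derived signal, read 0.054 and 0.18, then 0.80, 0.44 and 0.10, then 1.6, 1.69 and 1.49. The difference was 1.48 (SE 0.44), or 2.78-fold, and the knockout livers lay close together. Pdgfra, the receptor of portal fibroblasts and other mesenchyme, read -2.12 and -2.65, then -1.65, -1.70 and -1.80, then -1.12, -1.43 and -0.81, and its 3 genotypes did not overlap.

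Matrix glycoproteins and proteoglycans had a median difference of 1.1 over 8 genes, or 1.07 with Thbs1 at its bound. Lum, which encodes the collagen-binding proteoglycan lumican, read 0.28 and 0.16 in wild type, 0.56, 0.69 and 0.55 in hemizygous and 1.94, 2.02 and 2.18 in knockout livers. The difference was 1.82 (SE 0.72), or 3.54-fold, and the 3 ranges were separate. Dcn, which encodes decorin, a related proteoglycan that binds transforming growth factor beta, read 5.36 and 5.34, then 5.71, 5.68 and 5.61, then 6.19, 6.37 and 6.64, also in separate ranges. Sparc, a collagen-binding protein of remodelling tissue, read 3.10 and 2.68, then 3.59, 3.63 and 2.93, then 3.71, 4.06 and 3.79, with hemizygous animals 27 and 28 close to the knockout. Thbs1, an activator of latent transforming growth factor beta, was not well above background in wild type and was at least 1.63-fold higher in the knockout, with levels of -5.38 and -5.64 against -4.64, -4.95 and -3.28 and hemizygous livers at -5.20, -4.83 and -5.13. Fn1, fibronectin, which hepatocytes also secrete into plasma, read 5.01 and 4.71, then 5.33, 5.48 and 4.56, then 4.81, 4.89 and 4.49, a difference of -0.13 (SE 0.43) with the groups intermixed. Thbs2, Bgn and Fbn1 differed by 1.46 (SE 0.59), 1.11 (SE 0.58) and 1.09 (SE 0.71), each without overlap of knockout and wild type.

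The contractile and cytoskeletal genes of myofibroblasts had a median difference of 1.23 over 5 genes. Acta2, α-smooth muscle actin, read 1.34 and 0.96 in wild type, 1.65, 1.84 and 1.07 in hemizygous and 1.82, 2.27 and 3.05 in knockout livers, a difference of 1.23 (SE 0.41) on its brightest probe. Tagln, transgelin, an actin-binding protein of smooth muscle and myofibroblasts, read 2.13 and 1.76, then 2.71, 2.23 and 2.16, then 3.22, 3.61 and 3.33. The difference was 1.44 (SE 0.42), with 3 separate ranges on this brightest Tagln probe. On the second Tagln probe the hemizygous livers, at -1.43, -1.41 and -2.25, overlapped both the wild-type and the knockout range. Des, the muscle-type filament desmin of stellate cells, read -3.51 and -4.11, then -2.98, -2.61 and -3.38, then -2.64, -2.81 and -2.42, where hemizygous and knockout livers overlapped. Vim, the mesenchymal filament vimentin, read 1.16 and 0.88, then 1.96, 1.70 and 1.62, then 2.27, 2.04 and 2.44, and Lgals1, galectin-1, read 1.09 and 0.77, then 0.74, 1.52 and 1.23, then 1.79, 3.25 and 1.93. Vim separated the 3 genotypes, while Lgals1 separated the knockout from the rest, with animal 64 highest.

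Genes of resting stellate cells did not have lower means in the young knockout. Lrat, which makes retinyl esters for vitamin A storage, read -0.38 and -0.35 in wild type, 0.23, -0.084 and -0.053 in hemizygous and 0.50, -0.32 and -0.65 in knockout livers, a difference of 0.20 (SE 0.53). Reln, a secreted glycoprotein that marks stellate cells, read 1.90 and 1.76, then 2.38, 2.27 and 2.0, then 2.76, 2.90 and 2.83 in 3 separate ranges, a difference of 1.0 (SE 0.37). Cygb, the globin of stellate cells, read 0.80 and 0.17, then 0.90, 0.80 and 0.58, then 1.43, 1.89 and 2.14, a difference of 1.34 (SE 0.41). The knockout livers thus had more signal for both Reln and Cygb. On the brightest Lrat probe the knockout range enclosed the wild-type one. On the second Lrat probe all 3 knockout livers lay above both wild-type livers, at -0.29, -0.76 and -0.91 against -1.13 and -1.12.

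With 2 wild-type livers the result depended on single animals. The median of the 38 was 1.45 without wild type 31 and 1.09 without wild type 34, fits that leave 1 wild-type liver. It stayed between these values when any other of the 18 non-tumor and control arrays was left out. The count at an unadjusted p under 0.05 was 14 without knockout 69, beside 25 with all arrays. The share of all genes at that p is not given for the fit without knockout 69. Without knockout non-tumor 934, a sample of another group that enters the shared variance, Loxl1 passed the threshold (adjusted p = 0.0453). That fit called 24 genes of the array in all.

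Hemizygous livers were compared with each neighbour to see whether loss of a single allele moved these genes. Between hemizygous and wild type, 35 of the 38 had a higher mean and the median was 0.50, beside -0.05 over all 27008 genes, or 0.48 with Loxl3 and Tgfb2 at their bounds. No gene of the array passed the adjusted threshold (0% in limma, with 326 genes at an unadjusted p under 0.05). Of the 38, 1 was higher at an unadjusted p under 0.05, beside 0.367% of all genes, and it was Loxl3, a bound of at least 1.08-fold. All 3 hemizygous livers lay above both wild-type livers for 19 of the 38, beside 8.51% of all genes, and below them for Mmp12, which was not well above background in either group, beside 9.97%. Knockout exceeded hemizygous mean level in 36 of the 38, with a median of 0.75. No member passed the adjusted threshold, which 0.0518% of all genes passed. At an unadjusted p under 0.05, 9 were higher in the knockout, beside 3.72% of all genes, and 23 lay wholly above hemizygous, beside 15.2%, and 0 wholly below, beside 10.2%. Those 9 were Loxl1, Loxl2, Mmp12, Pdgfrb, Lum, Acta2, Tagln, Lgals1 and Cygb. Pdgfrb, with the fourth smallest p, was higher by 1.15 (SE 0.39) (limma adjusted p = 0.423). The hemizygous livers share their contrasts with the knockout and wild-type arrays, so the 3 comparisons are not separate evidence. Sex was not given, and Xist, a transcript of female cells, was unequal between the groups. It read -1.19 and -6.18 in wild type, -0.68, -1.24 and -1.39 in hemizygous and -7.80, -8.06 and -0.68 in knockout livers. Genotype and sex may thus be mixed in all 3 comparisons. With Xist level as a covariate the median was 1.38 for knockout against wild type, 0.90 for knockout against hemizygous and 0.46 for hemizygous against wild type.

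Neighbouring genotypes shared a slide in 2 cases. On the slide with knockout 137 and hemizygous 27 and 28, 31 of the 38 genes were higher in the knockout and the median was 0.52. On the slide with hemizygous 30 and both wild-type livers, 27 of 38 were higher in the hemizygous liver and the median was 0.20. A fit with slide as a fixed block over the 18 arrays takes its 2-month differences from these same 2 slides. It rests on 1 knockout liver and, beside wild type, on 1 hemizygous liver, so it is no further evidence and gives sizes only. Its median for knockout against wild type was 0.79 in place of 1.25, and 31 of the 38 had a higher mean. With slide as a random block, 17 of the 38 were higher at an unadjusted p under 0.05 in place of 25. Between knockout and hemizygous liver that count was 7 in place of 9. The share of all genes at that p is not given for the random block. Slide and genotype cannot be told apart beyond these chains. For genes such as Loxl1 and Sparc, hemizygous 30 lay at the wild-type level and hemizygous 27 and 28 nearer the knockout. That split followed the slides, so animal and slide cannot be told apart in it.

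The same genes were compared between non-tumor tissue of 12-month knockout mice and age-matched wild-type liver. Among genes measured in both groups, Col5a2, Mmp12, Lum, Fbn1, Vim, Col1a1 and Col3a1 had the highest differences, collagens IV and VI and the decorin gene had differences near 0, and the brightest probe of Acta2 was lower in the knockout. The median change of the 38 was 0.41 beside -0.12 over all 27017 genes, and 25 of the 38 had a higher mean. None passed the adjusted threshold in limma, which 0.0185% of all genes passed, and the lowest adjusted p was 0.104, for Acta2. At an unadjusted p under 0.05, 11 were higher and 1 was lower, beside 7.97% and 9.25% of all genes. Wild types 552 and 1110 were scanned on another day than wild type 641 and all 4 knockout samples. No other non-tumor or control array was scanned on that other day, so a term for scan day rested on the 12-month wild-type livers alone. With scan day as a covariate the knockout samples were thus in effect set against wild type 641 only. The median was then 0.30, and this fit cannot tell scan day from animal. In 6 genes all 4 knockout samples lay above all 3 wild-type livers, beside 5.09% of all genes. They were Col5a2, Lox, Tgfb2, Pdgfrb, Lum and, on its brightest probe only, Mmp14. Acta2 on its brightest probe lay wholly below, beside 5.3%.

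Wild-type livers of 12 months differed widely among themselves, with animal 552 high and animal 1110 low for most matrix genes. The mean level of the 38 genes was 0.17 in animal 552, -0.14 in animal 641 and -0.98 in animal 1110, beside -0.76 and -1.05 in the 2-month wild-type livers. Without animal 1110 the median change at 12 months was 0.0289 and 19 of the 38 had a higher mean. Without knockout 638 the median was 0.29, and 6 of the 38 passed the adjusted threshold in limma. They were Col5a2 at 4.59 (SE 0.95, adjusted p = 0.0122), Fbn1 at 2.33 (SE 0.58, adjusted p = 0.0265), Lum at 2.19 (SE 0.65, adjusted p = 0.0487), Tagln at 1.26 (SE 0.33, adjusted p = 0.0302) and Vim at 2.21 (SE 0.50, adjusted p = 0.0172), all higher, and Acta2 at -1.6 (SE 0.34, adjusted p = 0.0137). That setting called 2863 genes in all, or 10.6%.

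All 5 fibrillar collagens had higher means at 12 months, with a median of 1.66. Col1a1 read 2.21, 0.15 and -0.95 in wild type and 2.77, 1.30, 2.95 and 2.02 in knockout non-tumor liver, a difference of 1.79 (SE 0.78), and Col1a2 read 3.77, 2.09 and 0.77 against 3.26, 2.53, 3.14 and 3.04. In both genes wild type 552 lay inside or above the knockout range, and wild type 1110 was the lowest of all. Col3a1 read 3.16, 1.59 and 0.61 against 3.85, 2.76, 3.97 and 3.21, a difference of 1.66 (SE 0.66), with the same pair of extremes. Col5a2 read -2.51, -3.04 and -4.38 against 1.28, -2.04, 0.96 and 1.61, a difference of 3.76 (SE 1.03) or 13.6-fold (n = 4 and 3, limma adjusted p = 0.122). Its groups did not overlap, although knockout 638 stood far below the other knockout samples.

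Type IV and VI collagens had no common direction at 12 months, with a median difference of -0.05. Col4a1 read 0.80, 0.56 and -0.36 in wild type and -0.082, 0.53, 0.94 and 0.41 in the knockout, Col4a2 read 0.76, -0.15 and -0.41 against -0.12, -0.057, 0.74 and -0.0004, and Col6a1 read -0.17, -1.04 and -1.58 against -0.79, -0.30, -1.87 and -1.45. Their ranges were intermixed, and the differences were 0.12 (SE 0.35), 0.075 (SE 0.35) and -0.17 (SE 0.56).

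Cross-linkers split at 12 months. Lox was not well above background in any of the 3 wild-type livers, at -7.81, -5.81 and -7.82, and was so in 3 of the 4 knockout samples, at -4.14, -5.61, -3.07 and -5.16, which makes it at least 2.33-fold higher (adjusted p = 0.190). Loxl1 read -0.90, -1.24 and -1.92 against -0.98, -0.49, -1.25 and -1.03, Loxl2 read -3.26, -3.07 and -4.60 against -3.96, -3.36, -3.98 and -4.02, and Loxl3 read -4.13, -2.93 and -2.70 against -4.56, -3.50, -4.50 and -4.0. All 3 overlapped between genotypes, with differences of 0.41 (SE 0.49), -0.18 (SE 0.34) and -0.89 (SE 0.43).

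Of the proteases, Mmp12 read -3.52, -4.75 and -7.75 in wild type and -2.42, -5.17, -1.98 and -2.88 in the knockout, with wild type 1110 and knockout 638 not well above background. Its difference was 2.23 (SE 1.14) and the ranges overlapped. Mmp14 read 2.61, 2.90 and 2.23 against 3.24, 2.94, 3.86 and 3.45 on its brightest probe. The difference was 0.79 (SE 0.34), with the lowest knockout sample just above the highest wild-type liver. The second Mmp14 probe had the opposite sign, at -0.91, 0.072 and -0.62 against -2.09, -0.39, -0.87 and -1.64, with overlap. Mmp2 read -2.05, -2.08 and -3.40 against -2.69, -1.49, -2.93 and -2.48 and Timp1 read 0.23, -0.0086 and 0.094 against 0.89, -0.49, 1.03 and 1.01. For Timp1, 3 knockout samples lay above all wild-type livers and animal 638 lay below them.

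Tgfb2 had the larger difference of the 2 ligands, at -3.87, -4.47 and -4.26 against -2.52, -3.28, -1.81 and -3.34, a difference of 1.46 (SE 0.59) with no overlap. Tgfb1 read -1.42, -0.69 and -1.59 against -1.74, -0.77, -1.98 and -1.90, a difference of -0.36 (SE 0.40) with overlap. The receptor Pdgfrb read 1.73, 0.84 and 0.40 against 1.88, 2.22, 1.77 and 2.06, a difference of 0.99 (SE 0.36), with knockout 702 only just above wild type 552. Pdgfra read -0.94, -1.83 and -2.44 against -0.15, -0.85, -1.47 and -0.64, a difference of 0.96 (SE 0.49) with overlap.

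Lumican had the clearest difference among the proteoglycans. Lum read 0.81, 0.20 and -0.84 in wild type and 2.49, 1.51, 1.87 and 2.37 in the knockout, a difference of 2.0 (SE 0.60) or 4.01-fold, with no overlap (n = 4 and 3, limma adjusted p = 0.135). Dcn read 6.28, 6.07 and 5.41 against 6.13, 6.27, 5.10 and 6.24, a difference of 0.016 (SE 0.33). Fbn1, fibrillin-1 of elastic microfibrils, differed by 1.92 (SE 0.60). Fn1 read 4.57, 4.86 and 4.83 against 3.64, 4.88, 4.71 and 4.04, Sparc read 3.51, 2.99 and 3.35 against 2.88, 2.97, 3.72 and 2.54, and Thbs1 read -3.97, -3.71 and -5.38 against -1.71, -4.08, -2.03 and -3.50. Fn1 and Sparc overlapped widely, and Thbs1 was higher in 3 knockout samples than in any wild-type liver, with animal 638 below 2 of those livers. The Thbs1 spot of wild type 1110 was not well above background.

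Among the myofibroblast genes, Vim read 2.49, 1.18 and 0.61 in wild type and 4.03, 2.05, 3.64 and 3.26 in the knockout, a difference of 1.82 (SE 0.53), and Tagln read 1.84, 2.16 and 1.59 against 3.49, 2.12, 3.22 and 2.66, a difference of 1.01 (SE 0.35). In both, animal 638 was the knockout sample that lay inside the wild-type range. The brightest Acta2 probe went the other way, at 2.39, 2.44 and 3.07 against 1.05, 1.85, 1.31 and 0.74, a difference of -1.40 (SE 0.35). Des read -2.71, -1.70 and -3.20 against -3.01, -2.47, -3.46 and -2.56 and Lgals1 read 4.73, 3.82 and 3.74 against 2.44, 4.23, 3.09 and 3.22. Both overlapped, with differences of -0.34 (SE 0.38) and -0.85 (SE 0.50). Of the resting stellate genes, Lrat read 1.21, 0.077 and -0.74 against 0.52, 0.19, -1.04 and 0.44, Reln read 3.10, 2.51 and 1.87 against 3.27, 2.87, 3.31 and 3.04, and Cygb read 2.12, 1.75 and 1.01 against 2.29, 2.31, 1.41 and 2.11, all with overlap.

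**Figure D2:**
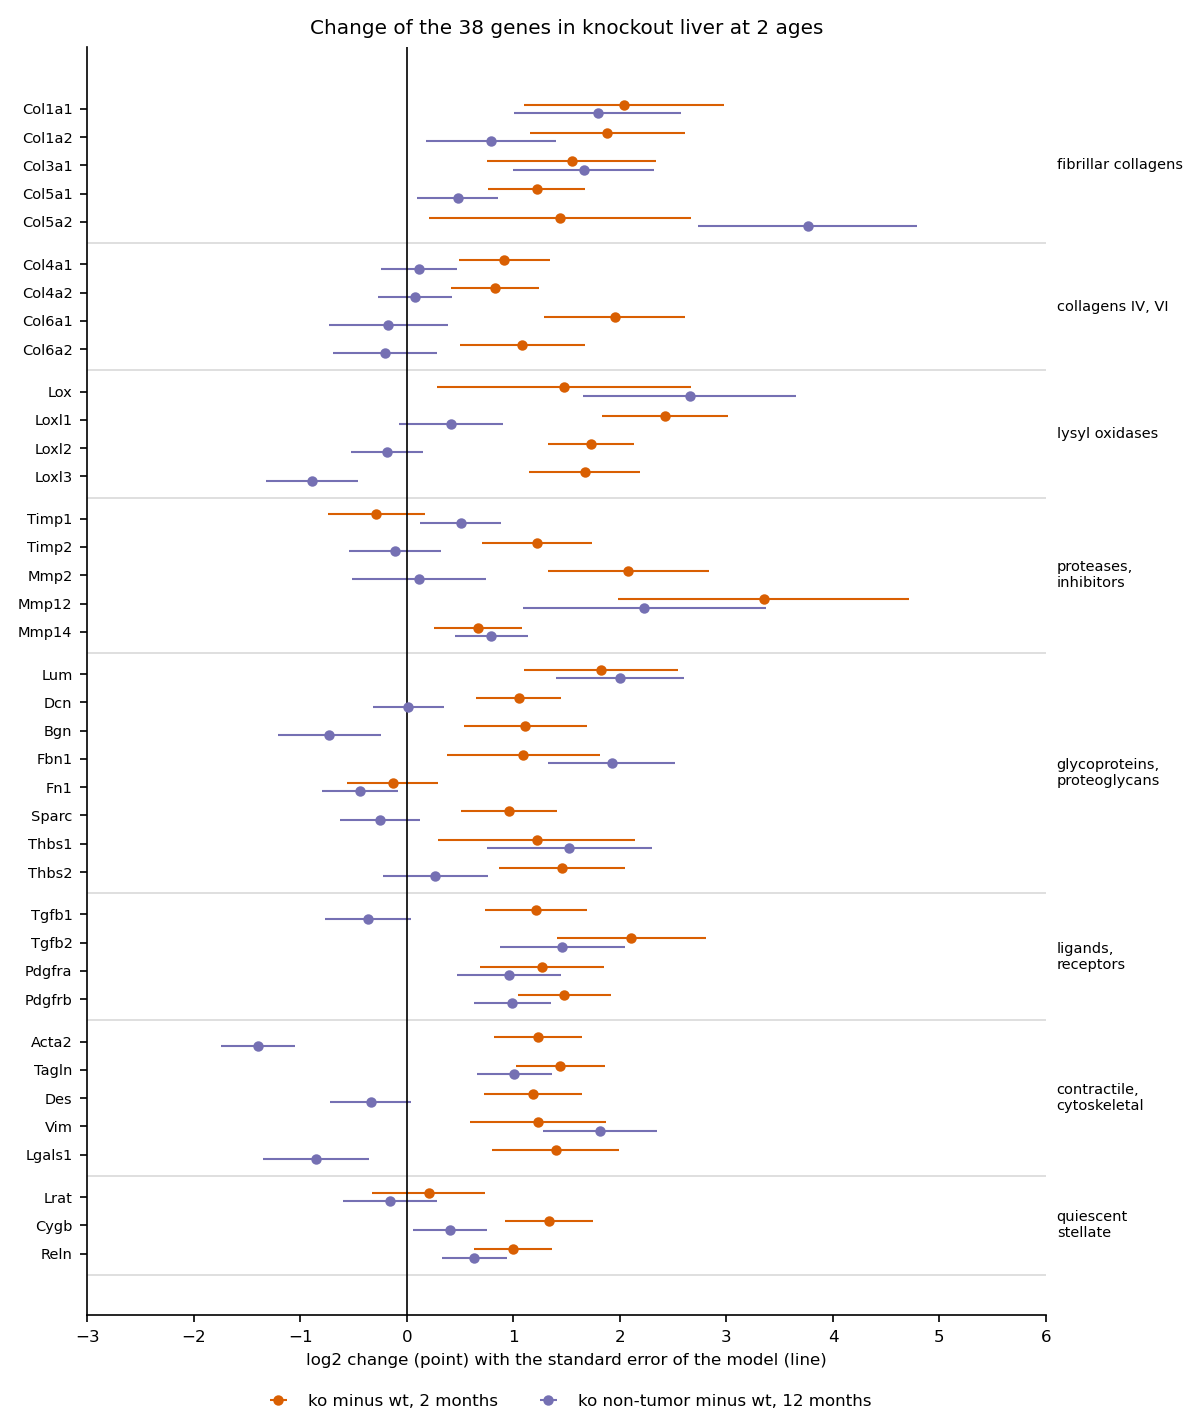
Change of each of the 38 genes between knockout and wild-type liver at 2 months (orange, 3 against 2 livers) and between knockout non-tumor and wild-type liver at 12 months (purple, 4 against 3), in log2 units on the x axis, grouped by role. Points are limma estimates and lines reach 1 standard error of the model to each side. At 2 months 36 points lie above 0, and at 12 months 25 do, with Acta2 at -1.40 and Col5a2 at 3.76 as the extremes. The 2-month points of Lox, Loxl3, Mmp12, Tgfb2 and Thbs1 and the 12-month point of Lox rest on wild-type signals not well above background.

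Several genes had more than 1 probe, and the probes of Acta2 did not agree at 12 months. The brightest Acta2 probe, A_51_P450957, differed by 1.23 at 2 months and by -1.40 at 12 months. The second, A_52_P420504, was well above background on all arrays of both comparisons and differed by 2.05 and by 1.51. The third, A_52_P210078, was not well above background in the 2-month wild-type livers, was at least 1.56-fold higher in the 2-month knockout and differed by 2.86 at 12 months, where it was so in 2 of 3 wild-type and all 4 knockout samples. On the second probe the 12-month wild-type livers lay between -0.43 and 0.0377 and the knockout samples between 0.48 and 2.21, so the groups separated in the opposite direction to the brightest probe. With all Acta2 probes averaged, the difference at 12 months was 0.99 (limma adjusted p = 0.342). No direction for Acta2 at 12 months can be given without naming the probe.

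Timp1 showed the same kind of disagreement. Its brightest probe, A_52_P87713, differed by -0.28 between knockout and wild type at 2 months, while the second probe, A_51_P512384, was not well above background in wild type, read between -5.41 and -2.62 in the knockout and was at least 1.91-fold higher there. At 12 months the 2 probes differed by 0.51 and -0.92. For Col1a1, A_52_P525107 and A_51_P377094 gave 2.04 and 2.62 at 2 months, and 1.79 and 0.0766 at 12 months. On A_51_P377094 the hemizygous livers read -0.53, 0.051 and -2.27 and overlapped both the wild-type and the knockout range. Another Col1a1 probe and a second Col3a1 probe, well above background on 15 and 17 arrays, gave -0.26 and -0.50 at 2 months. The 3 Fn1 probes gave -0.13, -0.0324 and 0.59 at 2 months and -0.44, -1.29 and -1.54 at 12 months. For Lrat, the second probe differed by -2.14 at 12 months, beside -0.16 for the brightest. Of 15 genes with several probes, 4 had probes of opposite sign at 2 months and 9 at 12 months. With each of 56 tested probes as its own row, 51 were higher in the knockout at 2 months with a median of 1.22, and 33 at 12 months with a median of 0.19.

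**Figure D3:**
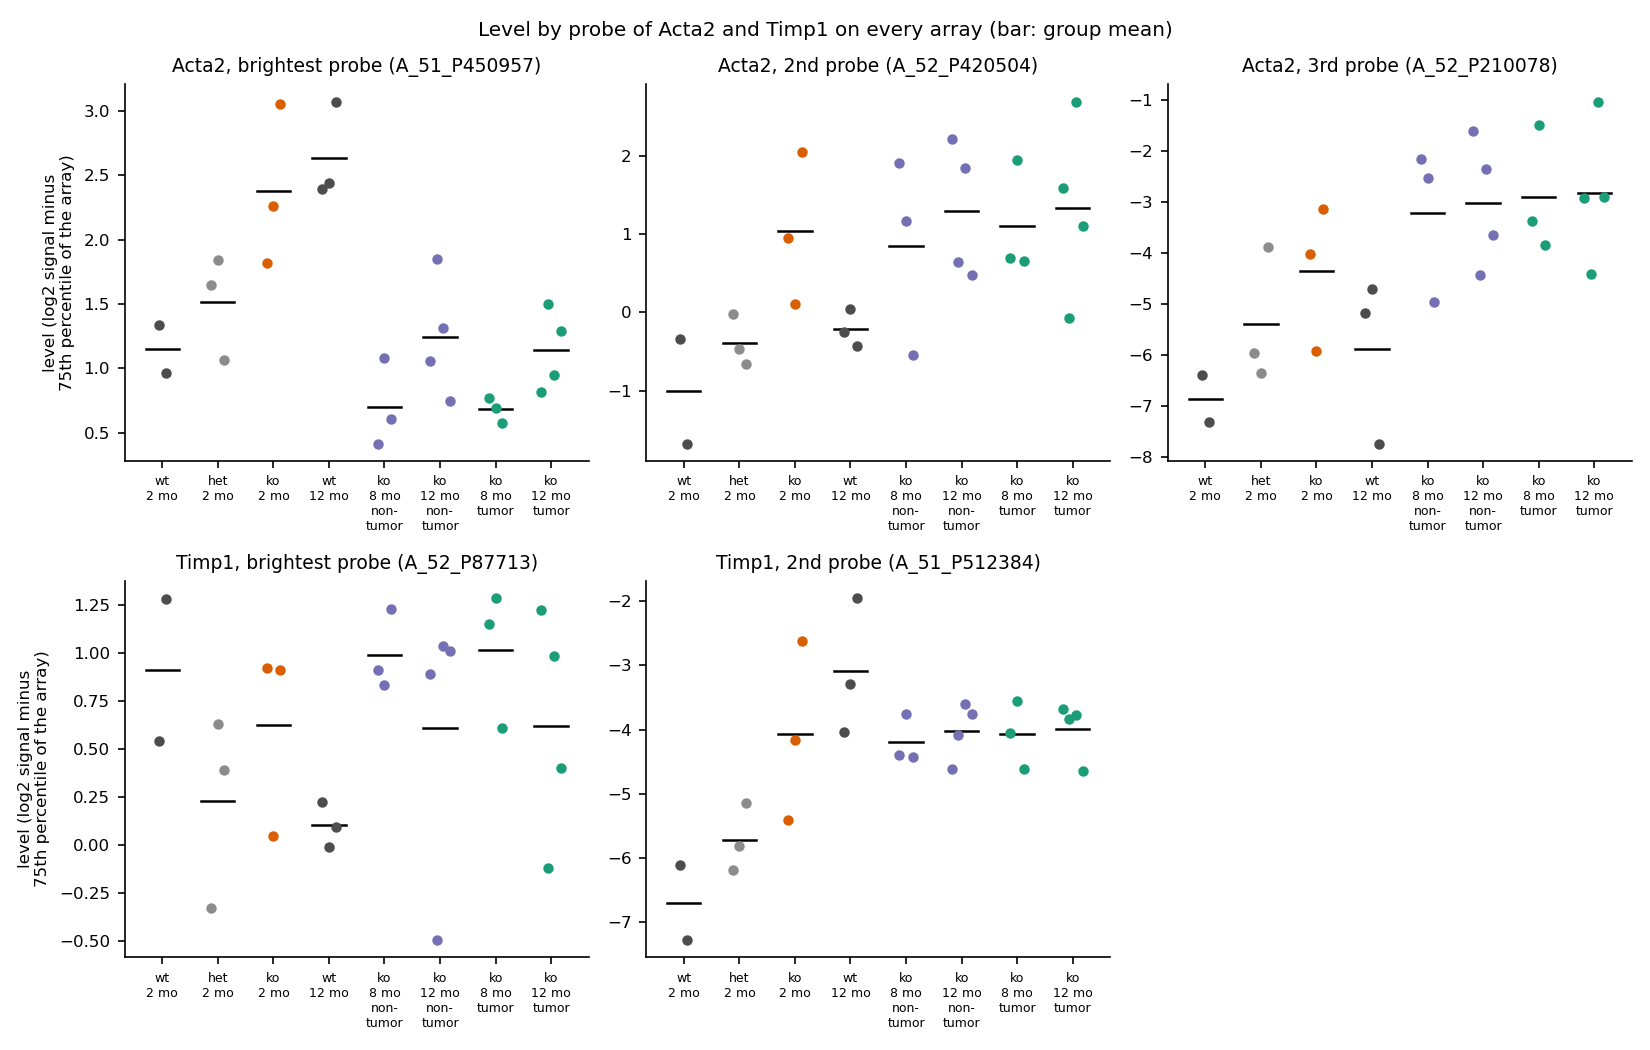
Levels of the 3 probes of Acta2 and the 2 probes of Timp1 on each of the 25 arrays, by group (x axis), as log2 signal minus the 75th percentile of the array (y axis, a separate range in each panel, levels not comparable between probes). Points are arrays and bars are group means. The 12-month wild-type livers are the highest group on the brightest Acta2 probe, at a mean of 2.64, and lie below the mean of knockout non-tumor tissue on the other Acta2 probes.

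Ageing was examined first in wild-type mice. Between 2 and 12 months, 28 of the 38 genes had a higher mean at 12 months, with a median of 0.62 beside -0.04 over all 27010 genes. None passed the adjusted threshold in limma, which 0.0407% of all genes passed. At an unadjusted p under 0.05, 6 were higher and 0 lower, beside 4.59% and 6.04% of all genes. They were Loxl3, Lgals1, Acta2, Des, Cygb and Loxl2. Lgals1, a galectin made by many cell types, was higher by 3.17 (SE 0.59) or 9.0-fold (adjusted p = 0.12), with 12-month livers from 3.74 to 4.73 and 2-month livers below 1.1. Loxl3 was at least 3.36-fold higher (adjusted p = 0.0927), Acta2 differed by 1.49 (SE 0.41) on its brightest probe and Des by 1.27 (SE 0.46). All 3 older livers lay above both young ones in 13 of the 38, beside 14.8% of all genes. Without wild type 641, Lgals1 and Loxl3 passed the threshold (adjusted p = 0.0110 and 0.0122), as did 6.19% of all genes. The 12-month livers left in that fit differ from the 2-month ones in slide and scan day. Age cannot be told apart from slide and scan day there. With slide as a fixed block the median of the 38 was 0.0052 and Acta2 differed by -0.22. That fit rests on wild type 641, the only 12-month wild type on a slide with another of the 6 groups.

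In the knockout the older non-tumor tissue was compared with 2-month liver, which enters each of these comparisons. At 8 months 19 of the 38 were higher, with a median of -0.05, and at 12 months 16 were, with a median of -0.30. No gene of the array passed the adjusted threshold at 8 months (0% in limma, with 4315 genes at an unadjusted p under 0.05), and 0.0074% did at 12 months, none of them among the 38. Unadjusted p was under 0.05 for 1 higher and 6 lower genes at 8 months, beside 8.21% and 7.76% of all genes, and again for 1 and 6 at 12 months, beside 6.4% and 10.8%. The brightest Acta2 probe was lower by the largest margin relative to its error, at 0.42, 1.08 and 0.61 at 8 months against 1.82, 2.27 and 3.05 at 2 months. The difference was -1.68 (SE 0.37) at 8 months and -1.14 (SE 0.35) at 12 months, and with all its probes averaged it was -0.24 and 0.15. On the second and the third probe the 8-month difference was -0.19 and 1.14. Loxl2 read -3.79, -3.41 and -4.22 at 8 months and differed by -0.99 (SE 0.36), then by -1.01 (SE 0.34) at 12 months. Col4a2 read -0.31, 0.69 and -0.22 and differed by -0.93 (SE 0.37), and Tgfb1 read -1.86, -1.76 and -2.97 and differed by -1.21 (SE 0.43). These 4 genes were the ones lower without overlap between 8 and 2 months, beside 11.8% of all genes. Vim was the gene higher at 8 months at an unadjusted p under 0.05, at 4.29, 3.97 and 2.35 and a difference of 1.29 (SE 0.57), with overlap. Lrat on its brightest probe was the 1 gene higher without overlap, beside 12.3% of all genes. It read 0.76, 0.88 and 0.92 against 0.50, -0.32 and -0.65. The second Lrat probe was lower without overlap, at -2.95, -2.46 and -1.53 against -0.29, -0.76 and -0.91.

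At 8 months animal 934 stood apart from the other 2 knockout mice in most fibrosis genes. Its non-tumor tissue also had the lowest Xist level, at -5.04 beside -2.07 in animal 1347 and -1.32 in animal 1287. Sex was not given, so animal and sex cannot be told apart in this difference. Non-tumor levels of animals 1347, 1287 and 934 were 3.59, 3.79 and 0.48 for Col1a1, 5.12, 3.95 and 1.83 for Col3a1, and 4.42, 3.32 and 0.95 for Lum. They were -1.39, -1.27 and -4.26 for Mmp2, -1.48, -1.29 and -5.52 for Mmp12, -3.02, -3.80 and -7.80 for Lox, -1.44, -2.31 and -5.03 for Thbs1 and -2.24, -2.54 and -5.16 for Tgfb2. Animal 934 was the lowest in each of these, and its Lox and Mmp12 spots were not well above background. Other genes at 8 months read 4.15, 3.79 and 1.74 for Col1a2, 1.15, 2.56 and -2.48 for Col5a2, -0.31, 0.062 and -2.02 for Col6a1, 0.41, 0.13 and -1.96 for Loxl1, 0.87, 0.48 and -1.37 for Pdgfra, 2.87, 2.57 and 1.31 for Pdgfrb, 3.83, 2.81 and 2.09 for Sparc and 6.70, 6.57 and 5.61 for Dcn, again with animal 934 lowest. In 8 of the 38 genes animal 934 was not lowest, among them Col4a2 at -0.31, 0.69 and -0.22, the brightest probe of Acta2 at 0.42, 1.08 and 0.61, Col4a1 at -0.11, 0.28 and 0.80, Timp1 at 0.91, 0.83 and 1.23, Fn1 at 3.30, 4.59 and 3.71, Tagln at 4.31, 3.02 and 3.60, Lgals1 at 3.62, 2.26 and 3.95 and Lrat at 0.76, 0.88 and 0.92. The remaining values were 3.68, 3.46 and 2.35 for Mmp14, -3.40, -2.43 and -3.48 for Des, -3.42, -3.85 and -4.49 for Loxl3, 3.08, 2.70 and 1.94 for Cygb and 3.50, 3.34 and 2.38 for Reln, all lowest in animal 934. Over the 38 genes the mean level was 0.97 in animal 1347 and 0.88 in animal 1287, the highest of the 25 arrays, and -0.62 in animal 934. Without animal 934 the median difference from 2 months was 0.45 in place of -0.05, and no gene of the array passed the adjusted threshold in limma.

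Between 12 and 8 months of knockout non-tumor tissue 13 of the 38 were higher, with a median of -0.17, or -0.72 without animal 934. No gene passed in limma (0% of the array, with 1435 genes at an unadjusted p under 0.05), and 1 of the 38, Tagln, was lower at an unadjusted p under 0.05 with a difference of -0.77 (SE 0.35), beside 4.28% of all genes. Lrat on its brightest probe was lower without overlap, beside 4.53% of all genes, by -0.83 (SE 0.44) while its second probe differed by 0.0816. Pdgfra and Cygb differed by -0.77 (SE 0.49) and -0.54 (SE 0.35).

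Whether the knockout difference depended on age was tested as the 12-month difference minus the 2-month difference. It was below 0 in 29 of the 38, with a median of -0.78. No gene passed in limma (0% of the array, with 2603 genes at an unadjusted p under 0.05). Among the 38, 9 were below 0 at an unadjusted p under 0.05, beside 4.91% of all genes. They were Acta2 on its brightest probe at -2.63 (SE 0.54), Loxl3, Loxl2 at -1.91 (SE 0.53), Lgals1 at -2.25 (SE 0.78), Col6a1 at -2.12 (SE 0.87), Loxl1 at -2.01 (SE 0.77), Tgfb1, Bgn and Des. Loxl3 was not well above background in 2-month wild type, and with its 2-month change at the bound its value was -1.33 or lower. With all probes averaged Acta2 was at -0.93. The lowest adjusted p was 0.336, for the brightest probe of Acta2, and without knockout 638 it was 0.0307. The median ran from -1.16 without wild type 1110 to -0.42 without wild type 552.

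Tumor was compared with non-tumor tissue of the same animal in 7 pairs. Collagen chains of types I and IV, Loxl2 and Lgals1 had higher means in tumor, Col5a2 and Cygb had lower means, and most of the 38 genes showed no common direction. The median difference of the 38 was 0.0575, and 23 were above 0. No gene of the array passed in limma (0% of 24575 genes, with 999 at an unadjusted p under 0.05). Among the 38, 4 were higher and 1 was lower at an unadjusted p under 0.05, beside 2.38% and 1.68% of all genes. None of the 38 had the same sign in all 7 pairs, beside 0.614% of all genes higher and 0.826% lower in all pairs. Differences are listed for animals 1347, 1287 and 934 at 8 months and 1109, 638, 702 and 793 at 12 months.

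Col1a2 differed by -0.27, 0.70 and 1.41 at 8 months and 0.72, 0.14, 1.04 and 0.10 at 12 months, a mean of 0.55 (SE 0.22) with 6 of 7 pairs above 0 and the smallest p of the 38 (adjusted p = 0.999). Its partner Col1a1 differed by -0.18, 0.68 and 1.63 at 8 months and 1.01, -0.70, 0.92 and 0.70 at 12 months, higher in 5 of 7 pairs. Col3a1 differed by -1.17, 0.97 and 1.18 at 8 months and 0.26, -0.16, 0.88 and 0.46 at 12 months. The 3 chains were lower in the tumor of animal 1347 and highest, relative to own tissue, in that of animal 934. Col5a2 differed by -1.17, -1.30 and -0.27 at 8 months and -2.04, 0.092, -1.56 and 0.64 at 12 months, a mean of -0.80 (SE 0.32) and lower in 5 of 7 tumors.

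Type IV collagen had its largest tumor difference in animal 1347. Col4a1 differed by 2.44, 0.16 and -0.0001 at 8 months and 1.52, 0.15, 0.16 and 0.086 at 12 months and Col4a2 by 2.58, 0.28 and 0.42 at 8 months and 1.07, -0.15, 0.53 and 0.45 at 12 months, with means of 0.64 (SE 0.32) and 0.74 (SE 0.30), each above 0 in 6 of 7 pairs. Without animal 1347 the mean of Col4a2 was 0.43. Col6a1 differed by -0.57, -0.83 and 0.66 at 8 months and -0.10, -0.95, 0.16 and 1.48 at 12 months, with no common sign.

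Loxl2 differed by 0.40, 0.12 and -0.058 at 8 months and 2.59, -0.016, 1.58 and 0.70 at 12 months, a mean of 0.76 (SE 0.33) carried by animals 1109 and 702. Loxl1 differed by -1.25, -0.33 and 0.69 at 8 months and -0.53, -0.83, 0.14 and 0.79 at 12 months, Loxl3 by -0.76, 0.33 and 0.17 at 8 months and -0.11, 0.62, 0.25 and 0.043 at 12 months and Lox by -1.04, 0.57 and 0.41 at 8 months and -0.040, -0.030, -0.046 and 0.82 at 12 months, and these 3 had pairs on both sides of 0. The Lox spot was not well above background in the samples of animals 934 and 638.

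Mmp12 was lower in all 3 tumors of 8 months and higher in all 4 of 12 months, at -1.39, -0.082 and -0.12 at 8 months and 0.61, 2.35, 0.25 and 0.30 at 12 months. The difference between the ages was 1.41 (SE 0.60) (limma adjusted p = 0.794), and animal 638 gave the largest pair difference. Both samples of animal 934 and the non-tumor sample of animal 638 were not well above background. Mmp2 differed by -0.22, -0.89 and 0.71 at 8 months and -0.064, -1.1, -0.047 and 0.99 at 12 months, Mmp14 by -0.047, 0.43 and 0.40 at 8 months and 0.0049, -0.053, 0.54 and -0.074 at 12 months and Timp1 by 0.24, 0.45 and -0.62 at 8 months and 0.33, 0.37, -0.053 and -0.61 at 12 months. None of these 3 had a shared direction. Thbs1 had the smallest p for a difference between the ages, at -0.90, 0.028 and -0.34 at 8 months and -0.071, 0.46, 0.64 and 0.92 at 12 months and 0.89 (SE 0.37) (adjusted p = 0.794).

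Animal 1347 had the extreme pair difference for both receptors and for Tgfb1. Pdgfra differed by -2.30, -0.094 and 0.72 at 8 months and -1.29, 0.21, 0.50 and 0.60 at 12 months and Pdgfrb by -1.46, -0.077 and 0.58 at 8 months and -0.28, -0.49, 0.35 and 0.33 at 12 months, where animal 1347 had the lowest difference in each. Tgfb1 differed by 0.91, -0.33 and -0.33 at 8 months and -0.024, -0.69, 0.34 and 0.39 at 12 months and Tgfb2 by 0.35, 0.96 and 1.07 at 8 months and -0.11, -1.55, 0.68 and 0.32 at 12 months. The Tgfb1 difference was highest in animal 1347 and the Tgfb2 difference lowest in animal 638.

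Lum differed by -2.56, 0.39 and 1.27 at 8 months and -0.50, 0.052, 0.71 and 0.66 at 12 months, Dcn by -1.97, -0.66 and 0.79 at 8 months and -1.08, -0.055, 0.56 and -0.086 at 12 months and Fn1 by 1.31, -1.12 and 0.30 at 8 months and 0.47, -0.55, 0.051 and 0.42 at 12 months. The differences of lumican and decorin were lowest in animal 1347, where that of fibronectin was highest. Sparc differed by 0.56, 0.49 and 0.033 at 8 months and 0.44, -0.29, 0.19 and 0.29 at 12 months, above 0 in 6 of 7 pairs, with a mean of 0.24 (SE 0.15).

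The brightest Acta2 probe differed by 0.36, -0.39 and -0.031 at 8 months and -0.24, -0.35, -0.36 and 0.55 at 12 months, and its mean was -0.067 (SE 0.16). The other Acta2 probes had means of 0.13 and 0.25. Tagln differed by -2.01, 0.57 and 0.38 at 8 months and -0.31, -0.15, 0.95 and 0.016 at 12 months, Des by 0.14, -1.18 and 0.50 at 8 months and -0.28, 0.047, 0.015 and 0.65 at 12 months and Vim by -0.63, 0.25 and 0.54 at 8 months and -0.30, 0.11, 0.23 and 0.45 at 12 months. The pair difference was lowest in animal 1347 for Tagln and Vim and in animal 1287 for Des. Lgals1 differed by -0.24, 1.21 and 0.42 at 8 months and 2.05, 0.060, 1.68 and 0.041 at 12 months, a mean of 0.74 (SE 0.30) with 6 of 7 pairs above 0.

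The 3 resting stellate genes had lower means in tumor on their brightest probes, in which animal 1347 weighed most. Without it the mean was 0.0764 for Lrat, -0.12 for Reln and -0.31 for Cygb, and the second Lrat probe had a mean of 0.11 over the 7 pairs. Cygb differed by -1.91, -0.32 and -0.028 at 8 months and -1.09, -0.55, -0.083 and 0.22 at 12 months, lower in 6 of 7 pairs with a mean of -0.54 (SE 0.26). Lrat differed by -1.92, -0.21 and 0.53 at 8 months and -1.17, 0.10, 1.0 and 0.21 at 12 months and Reln by -1.07, -0.49 and 0.56 at 8 months and -1.11, 0.036, 0.32 and -0.020 at 12 months, with means of -0.21 (SE 0.34) and -0.25 (SE 0.23) and pairs on both sides of 0.

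**Figure D4:**
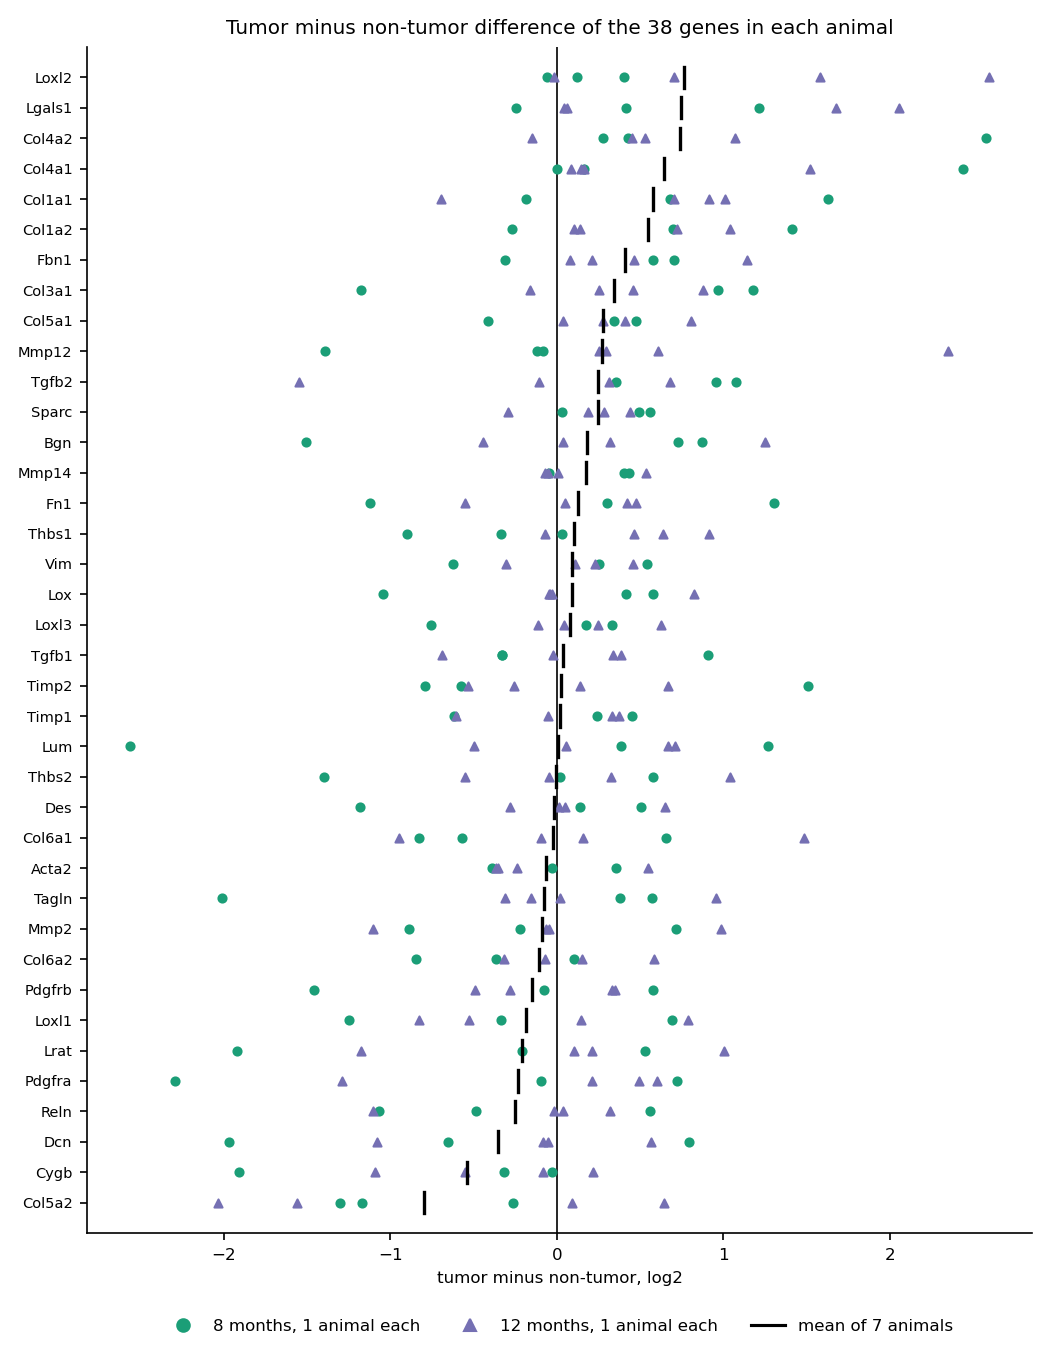
Tumor minus non-tumor difference in log2 units (x axis) for each of the 38 genes (rows, sorted by mean) in 7 animals, as green circles at 8 months, purple triangles at 12 months and a bar at the mean of 7. The means run from -0.80 for Col5a2 to 0.76 for Loxl2, and no gene has all 7 points on the same side of 0.

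Counted by animal, 11 of the 38 genes were higher in tumor in animal 1347, 20 in 1287, 29 in 934, 15 in 1109, 16 in 638, 32 in 702 and 34 in 793. The pair of animal 1347 was split over 2 slides and 2 scan days, and the other 6 pairs lay on 1 slide and 1 scan day each. Without animal 1347 the median over the 38 was 0.20, and no gene of the array passed the adjusted threshold in limma. The tumor difference was also compared between ages, and its median was 0.20, with 2 of the 38 higher at 12 months at an unadjusted p under 0.05, beside 5.6% of all genes. No gene of the array passed in limma (0%, with 1529 at an unadjusted p under 0.05). Tumors of 12 and 8 months were compared directly in 4 against 3 arrays. There 20 of the 38 were higher at 12 months, the median was 0.016, and no gene passed in limma (0% of 22873 genes, with 853 at an unadjusted p under 0.05). Unadjusted p was under 0.05 for 0 of the 38. Loxl2 had the smallest p among them, with tumor levels of -3.39, -3.29 and -4.28 at 8 months and -1.37, -3.38, -2.40 and -3.32 at 12 months and a difference of 1.04 (SE 0.54). Acta2 read 0.77, 0.69 and 0.58 against 0.82, 1.5, 0.95 and 1.29 on its brightest probe, Des read -3.26, -3.61 and -2.98 against -3.30, -2.43, -3.45 and -1.91, and Mmp12 read -2.87, -1.38 and -5.64 against -1.81, -2.82, -1.73 and -2.59. Of these 4 genes, Acta2 alone had ranges that did not overlap, and the Mmp12 spot of animal 934 was not well above background.

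Other genes of the pathway were read from lists chosen with earlier results in view, none of which were members. Of 29 tested genes of transforming growth factor beta and platelet-derived growth factor signalling, 18 were higher in the knockout at 2 months, with a median of 0.43, and 3 were higher at an unadjusted p under 0.05, beside 4.3% of all genes. At 12 months 21 of the 29 were higher, with a median of 0.43, and 5 were higher and 2 lower at an unadjusted p under 0.05, beside 7.97% and 9.25% of all genes. Ltbp2, a latent growth factor binding protein, differed by 2.06 at 12 months, the inhibitory Smad7 by 1.85, the SMAD corepressor gene Skil by 1.38 and the ubiquitin ligase gene Smurf2 by -1.33. Of 42 other tested genes of matrix and its assembly, 33 were higher at 2 months, with a median of 0.66 and 10 higher and 1 lower at an unadjusted p under 0.05, beside 4.3% and 4.61% of all genes. Among them Mmp13, a collagenase, was at least 3.62-fold higher, and Loxl4 differed by 3.30, the basement membrane gene Nid2 by 1.39 and the procollagen processing gene Pcolce by 1.16. At 12 months 32 of the 42 were higher, with a median of 0.53 and 13 higher and 3 lower, beside 7.97% and 9.25%, including Nid1 at 2.30, Spp1, which encodes osteopontin, at 2.01, the fibril-associated Col14a1 at 1.26 and the collagen hydroxylase gene Plod1 at -1.89. Of 15 further stellate and portal fibroblast genes, 12 and 10 were higher at the 2 ages, with medians of 0.68 and 0.24. At 12 months Cd34 differed by 2.46, the fibroblast surface gene Thy1 by 1.89 and the stellate transcription factor gene Hand2 by -1.47. Between tumor and non-tumor tissue the 3 lists had medians of 0.0281, 0.0778 and -0.22. None of these genes passed the adjusted threshold in limma in the comparisons at 2 and 12 months or in the pairs.

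Markers of other cells moved beside the matrix genes. Over 14 macrophage markers the mean level was 0.26 to 0.29 in 2-month wild-type livers, 0.30 to 0.57 in hemizygous and 2.0 to 2.05 in knockout livers. It was -0.49 to 1.55 in 12-month wild-type and 1.78 to 2.71 in 12-month knockout non-tumor tissue. All 14 were higher in the knockout at both ages, with medians of 1.35 and 1.53. Over 6 neutrophil markers the mean level was -4.68 to -4.42 in 2-month wild-type and -2.71 to -1.21 in knockout livers, and 3 of the 6 were not well above background in wild type. S100a9 and S100a8, which encode the subunits of calprotectin, passed the adjusted threshold between knockout and hemizygous liver in the main fit (limma adjusted p = 0.0275 for both). S100a9 was higher by 4.20 and S100a8 at least 14.7-fold higher. No gene of the array passed in that comparison with Xist level as a covariate, without hemizygous 27, 28 or 30, or without knockout 64. Xist was unequal between these groups, at -0.68, -1.24 and -1.39 in the hemizygous livers. The knockout livers had Xist at -7.80, -8.06 and -0.68. The mean level over 8 T and NK cell markers was -3.71 to -2.93 and -3.39 to -3.03 in 2-month wild-type and knockout livers, respectively. At 12 months wild-type livers had -4.21 to -2.41, against -2.59 to -1.59 for knockout non-tumor tissue. Over 5 smooth muscle markers other than the members the mean level ran from -2.95 to -1.97 in wild type and from -2.67 to -1.63 in knockout livers at 2 months. Over 12 endothelial markers it ran from 0.55 to 0.56 and from 0.0034 to 1.02, and over 8 hepatocyte markers from 7.40 to 7.51 and from 7.11 to 7.44. At 12 months the hepatocyte markers ran from 6.89 to 7.47 in wild type and from 6.37 to 6.84 in knockout non-tumor liver, without overlap, with a median change of -0.45. Over 8 cholangiocyte markers it ran from -2.63 to -2.42 and from -2.03 to -1.74, with medians of the change of 0.71 at 2 and 0.74 at 12 months. The part of these cells in the differences of the 38 genes was not tested.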

How the data were processed

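RNA of whole mouse liver was hybridised singly to Agilent 1-colour arrays, 25 in all, of 43379 spots and 41174 probes, and the files hold scanner intensity per spot as deposited by the authors, background-subtracted in the processed signal per the file headers. The file headers name Agilent Feature Extraction 10.5.1.1, and the submitters' processing notes name limma. The deposited table of log2 values had medians of 6.57 to 6.58 per array and ranked probes as the median signal did. How it was normalized, and whether genes were centred, is not given in the sources used here. Probes were named through RefSeq accessions, which gave 24375 probes (59.2%) a symbol, and probes without one were tested under their own names.

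The level of a probe was log2 of the processed signal minus the 75th percentile of its array. Control spots and spots marked as outliers by the scanner software were left out, spots of a probe were averaged, and the brightest probe stood for a gene. A gene was tested if it was well above background on at least 2 of the 18 arrays without tumor, or 3 arrays in the other fits. limma 3.58.1 in R 4.3.3 (lmFit, eBayes) was fitted to those 18 arrays as 6 groups with 12 residual degrees of freedom, to 14 paired arrays with the animal as a block and to the 7 tumor arrays, with two-sided tests, Benjamini-Hochberg adjustment over all genes and a threshold of 0.05. The fits were tested on simulated data. The number of arrays limits the precision.

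The pairing came from animal numbers in the labels. A tumor's deviations correlated with those of its own non-tumor sample at r = 0.14 to 0.62 over 24215 genes, and the own sample was the closest in 5 of 7 animals (not 1347 and 793).

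A gene not well above background on any array of a group has a bound only. The bound sets the mean of the brighter group against, per array, the lowest signal well above background or the probe's own signal where that is higher. Values in every sample are given for a named subset of members covering each role, for any past the threshold and for the 4 members with the smallest p in each comparison, and other lists are named by threshold or the 4 smallest p. The members and lists were chosen with earlier results of these data known. Alternatives were normexp with an offset of 50 and quantile scaling, quantile scaling alone, the deposited table, other filters, all probes averaged, trend and robust fits, scan day, slide or Xist level in the model, no block, and each array or animal left out. The slide as a fixed block and every probe tested on its own were added after seeing the data. The normexp setting used the median spot signal. A gene that the naming rule would have added is not reported here.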

Additional observations from a re-analysis of the deposited data

Results flagged for a closer look

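In groups of 4 to 10 arrays, 114 sets of values were checked for a single value far from the rest by Dixon's criterion, which chance meets in about 1 of 20 sets, and 6 met it. In 12-month knockout non-tumor tissue, Timp1 was lowest in animal 638 at -0.49, with the next at 0.89, and Loxl2 was highest in the same animal at -3.36, with the next at -3.96. In that group animal 702 had the highest Col4a2, at 0.74 with the next at -0.0004, and the lowest Dcn, at 5.10 with the next at 6.13. In 12-month tumors Vim was lowest in animal 638, at 2.15 with the next at 3.71. Among the 7 pairs, the Tagln difference of animal 1347 was -2.01, with the next at -0.31.

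The tumor difference of Mmp12 was below 0 in all 3 pairs of 8 months and above 0 in all 4 of 12 months, with means of -0.53 at 8 months and 0.88 at 12 months, and the test of that difference in limma gave an adjusted p of 0.794. The spot was not well above background in either sample of animal 934 or in the non-tumor sample of animal 638.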

How the results depend on the processing

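The median change of the 38 genes between knockout and wild type at 2 months was 0.83 with normexp and quantile scaling and 0.79 with slide as a fixed block. With that block the median was 0.52 between knockout and hemizygous liver, 0.20 between hemizygous and wild type and 0.0052 between 12- and 2-month wild type. At 12 months 1 of the 38, Acta2 on its brightest probe, passed the threshold as lower in the knockout with normexp and quantile scaling, with the deposited table, with the filter on every array and with the trend and robust fit, which called 1.81%, 0.848%, 3.1% and 1.2% of all genes. Over the alternatives that kept all arrays its adjusted p ran from 0.0397 to 0.342. Between 12- and 2-month wild type, 2 passed with quantile scaling (Loxl3 and Lgals1), beside 0.237% of all genes. In that comparison 1 passed with the deposited table, with the filter on every array and with the trend and robust fit (Lgals1), and 1 with Xist level as a covariate (Loxl3), where 0.0703% to 0.194% of all genes passed. Over those alternatives the adjusted p of Lgals1 ran from 0.0246 to 0.789 and that of Loxl3 from 0.0301 to 0.63. Between 8-month non-tumor and 2-month knockout, 1 passed with normexp and quantile scaling and with the deposited table, Acta2 at -1.58 and -1.73, beside 1.56% and 0.737% of all genes. Among the 4 members with the smallest p in each comparison, the sign changed in 4 cases. Acta2 was 0.99 at 12 months and 0.15 between 12- and 2-month knockout with all probes averaged, and -0.22 between 12- and 2-month wild type with the slide block. Mmp12 between tumors of 12 and 8 months ran from -0.11 without animal 934 to 2.02 without animal 1287. Other members changed sign as well. With all probes averaged, all 38 had a higher mean in the 2-month knockout than in wild type, Timp1 and Fn1 included. Where no array or animal decides it, the cause was not tested.

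With each array left out in turn, the median at 2 months ran from 1.09 to 1.45 between knockout and wild type, with 0 to 1 genes past the threshold. It ran from 0.62 to 0.89 between knockout and hemizygous liver and from 0.39 to 0.65 between hemizygous and wild type. At 12 months it ran from 0.0289 to 0.63, with 0 to 6 genes. For ageing of wild type it ran from 0.35 to 1.0, with 0 to 2 genes. For knockout at 8 against 2 months it ran from -0.31 to 0.45, with 0 to 1 genes, and for 12 against 8 months from -0.72 to 0.0757. The change of the knockout difference with age ran from -1.16 to -0.42, with 0 to 1 genes. The paired tumor difference ran from -0.0102 to 0.20. Without the replicate block by animal, the medians of the paired difference and of its change with age were 0.0575 and 0.20 with 0 genes past the threshold, and no call among the 38 changed. Groups of 2 to 4 arrays, and spots near background for Lox, Mmp12, Thbs1, Loxl3 and Tgfb2, limit what these data can resolve.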

Other observations

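Over the 25 arrays, the 10 tested genes outside the 38 whose level followed the mean of Col1a1, Col1a2 and Col3a1 most closely were 6 with a symbol and 4 probes without one here. Fstl1, which encodes a secreted glycoprotein of mesenchymal cells, had a Pearson r of 0.93. Adamts2, the protease that trims procollagen ends, had 0.88 and Ccdc80, a matrix protein gene, 0.89. Axl, a receptor tyrosine kinase gene, had 0.87, and 2 genes of immune cells, the endosomal RNA sensor Tlr7 and the Fc receptor gene Fcgr1, had 0.90 each. The probe A_51_P164817, which has no gene name here, had the highest r, 0.94, and A_52_P47846, A_52_P479262 and A_52_P256421 had 0.89 each. These values describe 25 arrays that share animals, slides and genotype groups, and the genes were picked for them.

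Measured the same way, the 38 genes had a median r of 0.63 with the mean of those collagens, which includes the 3 collagens themselves, beside -0.17 over all genes. Fbn1 at 0.90, Col5a1 at 0.88, Lum at 0.83 and Vim at 0.81 were nearest to them. Acta2 on its brightest probe at -0.37 and Fn1 at -0.32 were farthest, and Lrat at 0.086, Bgn at 0.054 and Tgfb1 at 0.11 were near 0.

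A slide held knockout 64 and 69 of 2 months and wild type 641 of 12 months, which differ in age as well as genotype. On it 28 of the 38 were higher in the knockout livers, with a median of 0.55 beside -0.30 over all genes, and the differences were 3.17 for Col1a1, 2.27 for Col3a1 and 1.90 for Lum.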
